A study of Mus musculus with 6 samples.

Results

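Acetylated histone H3 (H3ac) at 10 genes of the hypoxia response and glycolysis was compared between young, old and acetate-treated old mesenchymal stem cells (MSCs), the stromal stem cells of bone. The genes were Hif1a, Epas1, Egln1, Egln3, Vegfa, Slc2a1, Ldha, Pdk1, Pgk1 and Bnip3. Each H3ac region that overlapped one of these gene bodies, extended by 5 kb on both sides, was taken as a member, which gave 15 of the 24431 regions in the table. The mark was measured by CUT&RUN, in which an antibody guides a nuclease to the marked chromatin and the released fragments are sequenced. Cells labelled Young were taken from 3 to 5 month old mice, with no acetate. Those labelled Old were from 18 to 22 month old mice, also with none. Those labelled OldAcetate were of the same age, 18 to 22 months, and were given 5 mM sodium acetate for 3 days. Each group held 2 libraries, and all 6 cultures were kept at 2% oxygen, so no library came from cells at another oxygen level. The labels give neither strain nor sex, and do not say whether the 2 libraries of a group came from different animals, so p-values measure only the spread between these libraries, which may be technical.

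In cells short of oxygen, the prolyl hydroxylases encoded by Egln1 and Egln3 lose activity and the α subunits of hypoxia-inducible factor (HIF), encoded by Hif1a and Epas1, escape degradation. The stabilised factor binds hypoxia response elements and turns on genes for blood vessel growth, glucose uptake, glycolysis and mitophagy. H3ac is a mark of active promoters and enhancers, and its acetyl groups come from acetyl-CoA, which cells can also make from acetate.

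Library totals ran from 2163351 to 3039481 reads. The share of reads inside the regions was 64.8% and 57.8% in Young, 49.9% and 45.9% in Old, with 57.3% and 56.3% in OldAcetate. Markers of MSCs were acetylated, with a region over the start site of 9 of 9 genes and a summed level of 607 to 704 RPM (reads scaled to the library total) in Young, 496 to 537 in Old and 643 to 665 in OldAcetate. Of 5 hematopoietic markers, Spi1 had such a region, at 22.5 to 22.7 RPM in Young, 17.1 to 17.9 in Old and 19.8 to 22.9 in OldAcetate. The defining markers Ptprc, Itgam, Adgre1 and Cd3e had none, nor had any of 5 endothelial markers. These sums and the share of reads in regions moved with the groups in the same direction as most member values below, and their part in the results was not tested.

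All 10 genes carried an H3ac region over the 5′ end of the gene record. In the order of their roles, on mm10, these regions were chr12:73892501-73917000 at Hif1a, chr17:86752501-86756500 at Epas1, chr8:124942501-124955500 at Egln1, chr12:54187001-54210000 at Egln3 and chr17:46025001-46039500 at Vegfa. For the metabolic genes they were chr4:119101001-119130500 at Slc2a1, chr7:46837001-46850000 at Ldha, chr2:71872001-71875500 at Pdk1, chrX:106185001-106192000 at Pgk1 and chr7:138901501-138911500 at Bnip3. The other 5 regions lay at 4 of the genes. Epas1 had 2 in its body, chr17:86768001-86773000 and chr17:86783501-86790500, and Egln1 had 1, chr8:124918001-124930000. Downstream of the gene end lay chr12:73948001-73956500 at Hif1a, which overlaps the coding gene Gm49321, and chr4:119141501-119148500 at Slc2a1. The region name held the codes of all 3 groups for 14 of the 15 regions (93.3%, against 80.6% of all regions). The exception was the second Epas1 body region, whose code, AC+Y, lacks the letter read here as Old. The region over the start site of the MSC marker Eng, counted above, has the code Y alone. The labels do not define these codes.

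**Figure D1:**
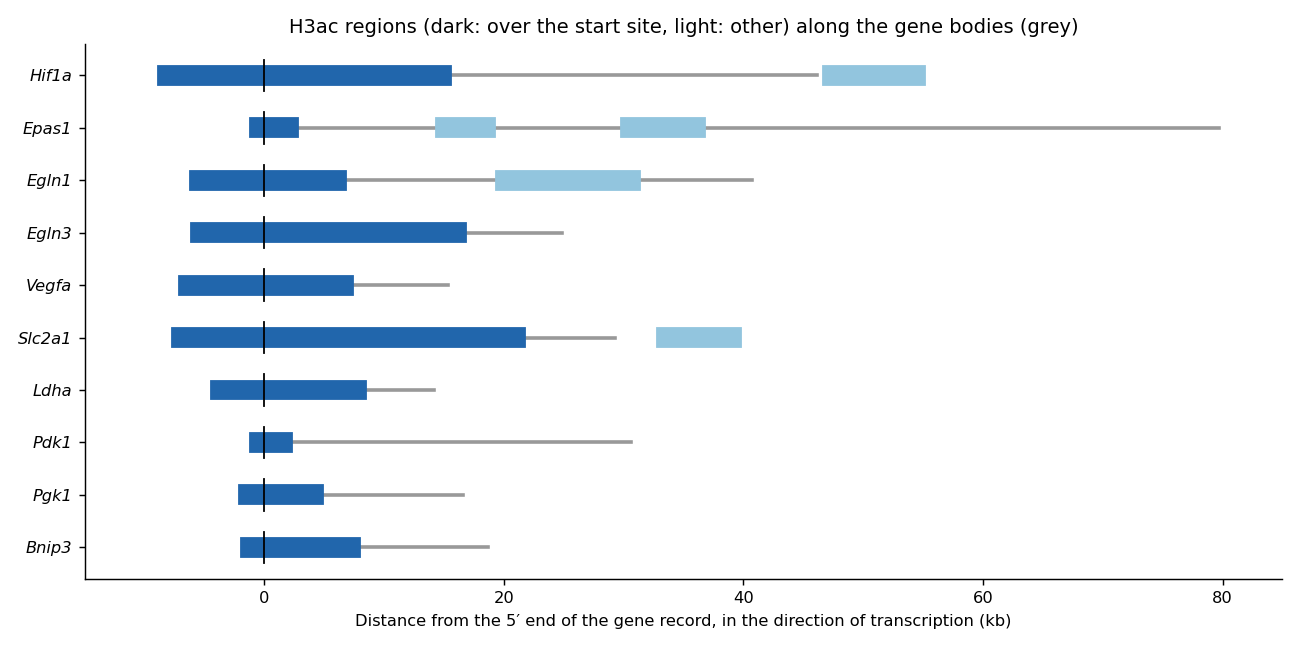
H3ac regions of the 10 genes, drawn to scale. The horizontal axis is the distance from the 5′ end of the gene record in kb, grey lines are gene bodies, dark boxes are regions over the start site and light boxes the other 5 regions; the start-site regions of Slc2a1, Hif1a and Egln3 span 29.5, 24.5 and 23.0 kb, while that of Pdk1 spans 3.5 kb.

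The acetylated domains at these genes were long. Start-site regions of the 10 genes had a median length of 13000 bp, against 5500 bp over all 9745 start-site regions. Regions of 20 kb or more made up 3 of the 15 (20.0%), against 6.99% of all regions. The domain of Slc2a1, which encodes the glucose transporter GLUT1, reached 7710 bp upstream and 21789 bp downstream of the start. At Hif1a it reached 8874 bp upstream and 15625 bp downstream. At the short end, the Pdk1 region, over the gene of a kinase that inhibits pyruvate dehydrogenase, reached 1223 bp upstream and 2276 bp downstream. The median GC content was 50.1% in the 10 start-site regions and 48.3% over all start-site regions. CpG density was 18.6 per kb against 23.7 per kb.

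Density, the RPM divided by region length, allowed levels to be ranked between genes. Over all libraries, Epas1 had the highest mean, 4.73 ± 1.34 RPM per kb (SD, n = 6 libraries), followed by Bnip3 at 4.46 ± 0.714 and Pdk1 at 4.27 ± 0.833. Ldha (3.62 ± 0.604), Slc2a1 (3.60 ± 0.573), Egln3 (3.09 ± 0.313), Vegfa (3.07 ± 0.533), Pgk1 (3.04 ± 0.787) and Hif1a (2.79 ± 0.452) came next. Egln1 was the least dense, at 2.14 ± 0.447 RPM per kb, and had the lowest mean in each group. The leading genes changed places between groups, as the Young means were 4.80 at Bnip3, 4.69 at Pdk1 and 4.67 at Epas1. The 2 longest domains, at Slc2a1 and Hif1a, thus did not have the highest density. Neighbours in this order differed by less than their SD, with 3 exceptions. The step of 0.64 RPM per kb from Hif1a to Egln1 and the step of 0.50 from Slc2a1 to Egln3 exceeded at least one of the neighbouring SDs, as did the step of 0.65 from Pdk1 to Ldha. The SDs include the differences between the groups. Over all start-site regions the median was 3.07 RPM per kb.

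**Figure D2:**
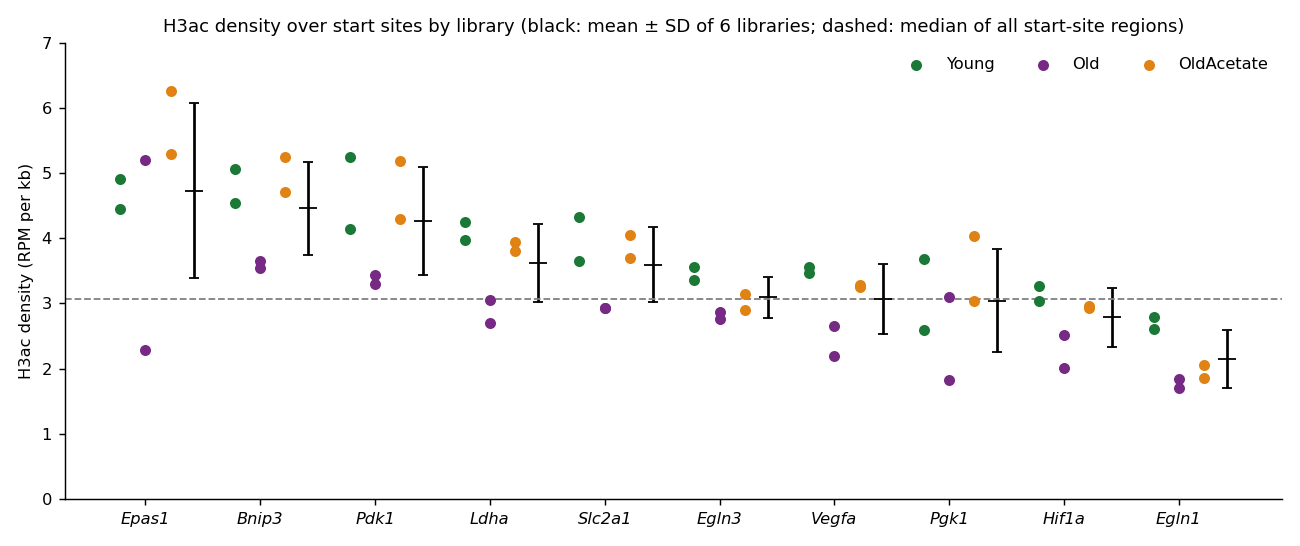
H3ac density (RPM per kb, vertical axis) of the start-site region of each gene, ordered from the densest. Coloured points are the 6 libraries, black marks the mean ± SD over them, and the dashed line the median of all start-site regions, 3.07; the mean over all libraries is highest at Epas1, 4.73, and lowest at Egln1, 2.14, while within Young Bnip3 (4.80) and Pdk1 (4.69) stand above Epas1 (4.67).

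Promoter sequences were read because the HIF complex recognises the core ACGTG or GCGTG. RefSeq windows of 250 bases before the start (GRCm38.p6) were held for 9 of the 10 genes, and all 9 lay inside the start-site region. Part of 3 windows lies in annotated exons, 70 bases at Egln1, 34 at Slc2a1 and 13 at Bnip3. The letters ACGTG or GCGTG were present on either strand in 8 of the 9, and in 44.0% of the windows of all protein-coding genes. Windows with 2 or more matches numbered 6 of 9, against 20.1% of all windows. CACGTG, which is ACGTG on both strands and was counted as 2 matches, was present in 3 of the 9 (Hif1a, Ldha and Bnip3), against 6.63% of all windows. The Vegfa window held neither core. These are letter matches, and no binding data were used. The windows below were chosen as those of the factor gene Hif1a, of Ldha and Bnip3, which had the most matches, and of Pgk1, whose 2 matches lie close together. They are written 5′ to 3′ along the gene, with matches on either strand in capitals (CACGT and CACGC are ACGTG and GCGTG on the opposite strand). Their positions are chr12:73907617-73907866 (plus strand), chr7:46845554-46845803 (plus), chrX:106186850-106187099 (plus) and chr7:138909507-138909756 (minus).

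Hif1a: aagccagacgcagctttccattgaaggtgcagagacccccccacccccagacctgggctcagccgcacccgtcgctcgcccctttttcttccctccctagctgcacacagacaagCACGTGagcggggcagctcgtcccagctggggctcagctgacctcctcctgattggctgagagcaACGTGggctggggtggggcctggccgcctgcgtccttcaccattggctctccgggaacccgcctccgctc
Ldha: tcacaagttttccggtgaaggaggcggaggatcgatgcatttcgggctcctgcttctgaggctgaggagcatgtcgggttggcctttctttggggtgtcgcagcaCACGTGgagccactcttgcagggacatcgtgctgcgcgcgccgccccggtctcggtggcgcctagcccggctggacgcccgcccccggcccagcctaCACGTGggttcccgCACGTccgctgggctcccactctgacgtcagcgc
Pgk1: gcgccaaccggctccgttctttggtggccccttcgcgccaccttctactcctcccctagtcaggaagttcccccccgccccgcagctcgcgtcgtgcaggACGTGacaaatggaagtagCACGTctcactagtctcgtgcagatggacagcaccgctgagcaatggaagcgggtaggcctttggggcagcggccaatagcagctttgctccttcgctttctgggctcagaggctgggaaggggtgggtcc
Bnip3: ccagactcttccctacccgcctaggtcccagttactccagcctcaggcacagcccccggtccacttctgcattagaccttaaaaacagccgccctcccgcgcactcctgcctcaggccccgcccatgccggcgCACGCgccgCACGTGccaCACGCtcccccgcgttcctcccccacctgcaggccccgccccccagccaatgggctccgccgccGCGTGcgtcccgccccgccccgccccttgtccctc

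The start used by RefSeq lay 6492 bp downstream of the 5′ end of the gene record at Hif1a and 4329 bp downstream at Ldha, still inside the acetylated region. Ldha and Bnip3 had 5 matches each, Hif1a 3 and Pgk1 2. Egln1 and Slc2a1 also had 2 matches, and Egln3 and Pdk1 had 1.

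Across the 15 regions, H3ac was lower in Old than in Young and higher again in OldAcetate. Their summed level was 627 and 607 RPM in the 2 Young libraries, 488 and 432 in Old, with 584 and 586 in OldAcetate. The 3 groups did not overlap. Old stood at 74.4% of Young, OldAcetate at 127% of Old and at 94.7% of Young. Over all 24431 regions the same figures were 78.1%, 119% and 92.6%, so most of the difference at these genes was shared by the whole table. The share of region reads that fell on the 15 regions was 0.0968% and 0.105% in Young, 0.0977% and 0.0940% in Old, with 0.102% and 0.104% in OldAcetate, with overlap between Young and each of the other groups. No test was made on the sums, since the smallest p of an exact two-sided permutation of 2 against 2 libraries is 0.333.

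Each region was tested with limma on 2 scales, on the RPM values as given and after centring, in which the median deviation from the region means is subtracted from each library, so that a change is measured against the typical region. Fold changes are on the log2(RPM + 0.5) scale, which understates changes of low regions. As given, all regions together had a median log2 change of -0.35 from Young to Old, 0.24 from Old to OldAcetate and -0.11 from Young to OldAcetate. The comparisons of Old with Young and of OldAcetate with Old share the Old libraries, and a low Old value enters both.

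The genes of the α subunits come first. At Hif1a, the start-site region held 74.4 and 80.1 RPM in Young, 61.5 and 49.3 in Old, with 72.6 and 71.7 in OldAcetate. Old lay below both other groups, and OldAcetate lay just below Young. Hif1a was lower in Old than in Young by a log2 change of -0.48 (SE 0.15, adjusted p = 0.0317, limma with Benjamini-Hochberg adjustment) as given, and by -0.13 (SE 0.12, adjusted p = 0.940, limma) after centring. With acetate it was higher by 0.39 (SE 0.15, adjusted p = 0.164, limma) as given and by 0.15 after centring. The region downstream of Hif1a behaved otherwise, with 19.4 and 12.7 RPM in Young, 15.3 and 15.1 in Old, with 13.4 and 18.4 in OldAcetate, and its RPM values overlapped between all groups.

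Epas1 encodes HIF-2α. Its start-site region held 17.8 and 19.6 RPM in Young, 20.8 and 9.15 in Old, with 21.2 and 25.0 in OldAcetate. The 2 Old libraries stood on either side of Young, and the value of Old replicate 2 rests on 23 reads, for which counting error alone is 20.9%. After centring, OldAcetate was higher than Old by a log2 change of 0.48 (SE 0.24, unadjusted p = 0.0485, adjusted p = 0.797, limma), and leaving out Old replicate 2 or Old replicate 1 gave -0.03 or 0.99. Of the body regions, the one nearer the start was level, at 11.5 and 13.1 RPM in Young, 12.9 and 11.5 in Old, with 11.4 and 14.2 in OldAcetate. The farther one held 16.8 and 16.3 RPM in Young, 12.02 and 10.3 in Old, with 12.8 and 10.8 in OldAcetate. There, both old groups lay below Young and overlapped each other, although the region's code names OldAcetate and not Old. Its log2 change from Young to OldAcetate was -0.48 as given (SE 0.27, adjusted p = 0.835, limma).

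The oxygen sensor genes Egln1 and Egln3 had the smallest log2 changes from Old to OldAcetate among the 10 start-site regions. The Egln1 start-site region held 36.2 and 33.9 RPM in Young, 22.2 and 23.9 in Old, with 24.2 and 26.7 in OldAcetate. Both OldAcetate libraries lay above both Old libraries and well below Young. Egln1 was at 65.7% of Young in Old, with a log2 change of -0.60 (SE 0.20, adjusted p = 0.0425, limma) as given and -0.25 (SE 0.18, adjusted p = 0.924, limma) after centring. From Old to OldAcetate it changed by 0.14 (SE 0.20) as given and by -0.10 after centring, and OldAcetate stayed at 72.6% of Young (log2 change -0.46 as given, SE 0.20, unadjusted p = 0.0232, adjusted p = 0.781, limma). The body region of Egln1 differed in this respect, with 46.7 and 29.8 RPM in Young, 33.3 and 25.1 in Old, with 36.3 and 40.0 in OldAcetate, so that OldAcetate lay within the spread of Young.

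Egln3, a hydroxylase gene that is itself a HIF target, held 77.3 and 81.7 RPM in Young, 63.3 and 66.0 in Old, with 66.5 and 72.2 in OldAcetate. The 3 groups did not overlap, with Young highest, Old lowest and OldAcetate close above Old. Its log2 change from Young to Old was -0.30 (SE 0.15, adjusted p = 0.146, limma) as given and 0.05 after centring, since it was lower by less than the typical region. With acetate it changed by 0.10 as given and by -0.14 after centring. Whether the acetate difference at Egln1 and Egln3 is smaller than at the other genes was not tested.

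**Figure D3:**
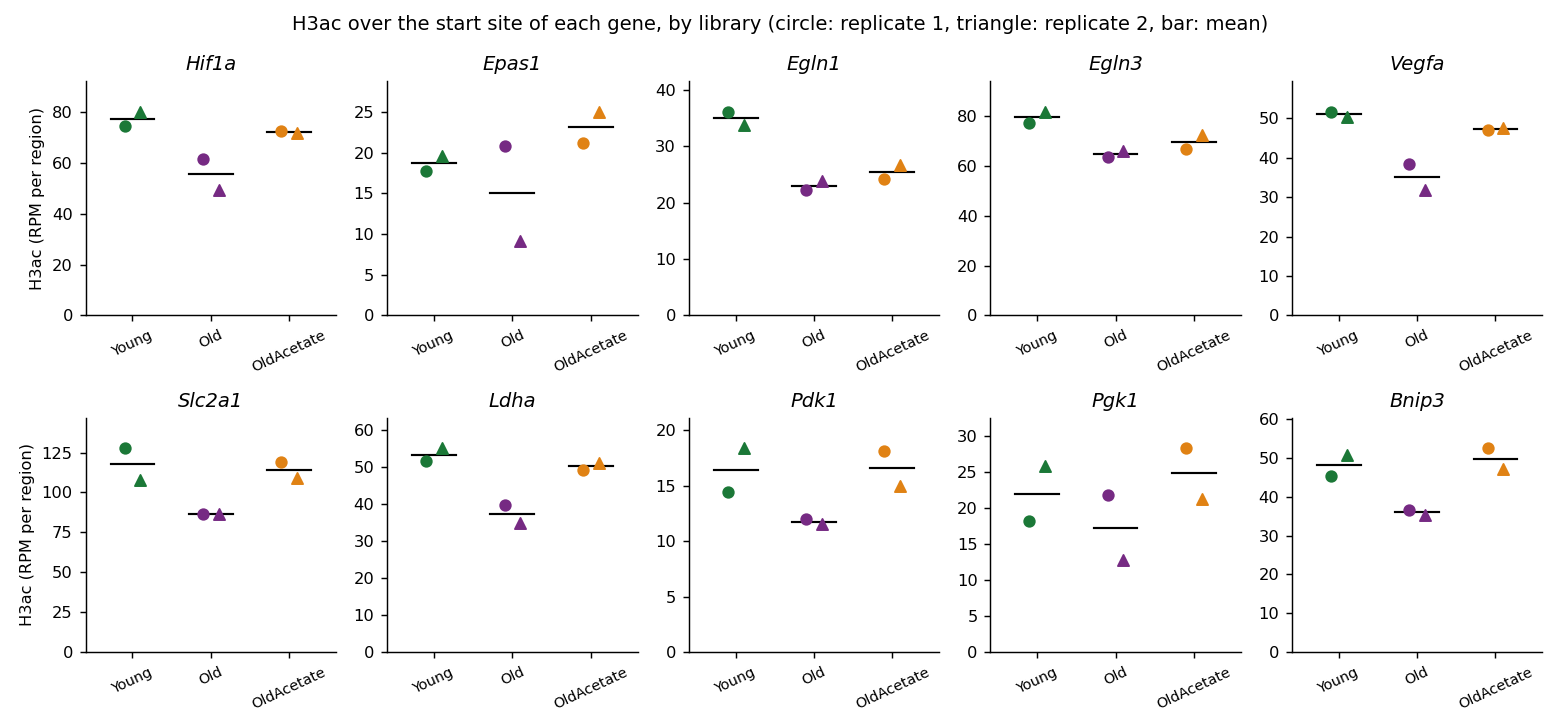
H3ac level (RPM per region, vertical axes from 0) over the start site of each of the 10 genes in Young, Old and OldAcetate cells. Circles are replicate 1, triangles replicate 2 and bars the group means. The Old libraries lie below both Young libraries at 8 genes, as they do in 6413 of all 9745 start-site regions. At Epas1 and Pgk1, Old replicate 1 lies within or above the Young range.

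Among target genes, Vegfa encodes the growth factor that drives vessel formation. It held 51.7 and 50.2 RPM in Young, 38.4 and 31.8 in Old, with 47.0 and 47.5 in OldAcetate. The groups did not overlap, and the OldAcetate libraries differed by less than those of the other groups. Vegfa was at 68.9% of Young in Old (log2 change -0.54 as given, SE 0.17, adjusted p = 0.0342, limma; -0.19 after centring, SE 0.14). In OldAcetate it was at 135% of Old (0.43 as given, SE 0.17, adjusted p = 0.169, limma) and at 92.8% of Young.

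Slc2a1 had the highest RPM per region of the 15, over the longest region (29.5 kb, with a density of 3.60 RPM per kb), at 128 and 108 RPM in Young, 86.4 and 86.3 in Old, with 119 and 109 in OldAcetate. Young and OldAcetate overlapped, and both lay above Old. The change from Young to Old was -0.44 (SE 0.13, adjusted p = 0.0266, limma) as given and -0.09 (SE 0.10) after centring. The change from Old to OldAcetate was 0.40 (SE 0.13, adjusted p = 0.112, limma) as given and 0.16 after centring. The region downstream of Slc2a1 held 18.4 and 12.3 RPM in Young, 11.6 and 8.35 in Old, with 11.1 and 15.4 in OldAcetate, with Old below Young and OldAcetate overlapping both.

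Old again had the lowest mean at both genes of glycolytic enzymes. Ldha, for the lactate dehydrogenase subunit that turns pyruvate to lactate, held 51.7 and 55.1 RPM in Young, 39.8 and 35.0 in Old, with 49.4 and 51.3 in OldAcetate. Old was at 70.0% of Young, a log2 change of -0.51 (SE 0.17, adjusted p = 0.0390, limma) as given and -0.16 (SE 0.14) after centring. OldAcetate was at 135% of Old, a change of 0.43 (SE 0.17, adjusted p = 0.167, limma) as given and 0.19 after centring. Pgk1, for the ATP-producing phosphoglycerate kinase, held 18.1 and 25.7 RPM in Young, 21.7 and 12.7 in Old, with 28.2 and 21.3 in OldAcetate. Its groups overlapped in every comparison. The change at Pgk1 was -0.37 (SE 0.23, adjusted p = 0.240, limma) from Young to Old as given and 0.54 (SE 0.23, adjusted p = 0.198, limma) from Old to OldAcetate, and after centring it was -0.02 and 0.31. Pgk1 is on chromosome X. The 408 regions of chromosome X had median centred log2 changes of -0.02, 0.03 and 0.02 in the 3 comparisons.

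Pdk1 held 14.5 and 18.4 RPM in Young, 12.02 and 11.5 in Old, with 18.1 and 15.02 in OldAcetate. Bnip3, for a mitophagy receptor of the outer mitochondrial membrane, held 45.4 and 50.7 RPM in Young, 36.5 and 35.4 in Old, with 52.4 and 47.1 in OldAcetate. In both genes the Old libraries were close together and below all others, while Young and OldAcetate overlapped. The change from Young to Old was -0.45 (SE 0.25, adjusted p = 0.193, limma) at Pdk1 and -0.41 (SE 0.17, adjusted p = 0.0880, limma) at Bnip3 as given. From Old to OldAcetate it was 0.47 (SE 0.25) at Pdk1 and 0.46 (SE 0.17) at Bnip3, and neither passed (adjusted p = 0.309 and 0.146, limma). After centring the changes were -0.10 and 0.23 at Pdk1 and -0.06 and 0.22 at Bnip3.

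Counted together, the log2 change from Young to Old was negative as given in 15 of 15 regions, against 92.1% of all regions, with a median of -0.44 against -0.35. Of the 15, 5 passed an adjusted p of 0.05 (limma), all lower in Old, against 9.5% of all regions called lower. They were the start-site regions of Hif1a, Egln1, Vegfa, Slc2a1 and Ldha, 33.3% of the members. These are 5 of the 10 start-site regions, against 11.2% of all start-site regions called lower. Each spans 13 kb or more, and 21% of all regions of 10 kb or more were called lower. None was called higher, against 0.0287% of all regions, and 9 of the 15 had an unadjusted p under 0.05, against 32% of all regions. In 10 of the 15 the Old values lay below both Young values with no overlap, against 60.2% of all regions, and in 0 they lay above both, against 1.29%. The count of 5 rested on single libraries. It fell when any library but Old replicate 1 was left out, as did the number of all regions called. Without Old replicate 1 the members called were partly others, and more of all regions were called. The median change was then -0.57, against -0.41 over all regions. Without Old replicate 2 it was -0.37, against -0.28 over all regions. The direction was negative in 12 to 15 of the 15 regions whichever library was left out, with 12 when Old replicate 2 was left out.

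After centring, 0 of the 15 regions passed from Young to Old (limma, against 0.00819% of all regions), and 0 had an unadjusted p under 0.05 (against 5.54%). With edgeR on the recovered reads and relative log expression factors both counts were 0, but no share over all regions is at hand for edgeR. The centred changes were negative in 12 and positive in 3, with a median of -0.09 against -0.00 over all regions. Leaving out Young replicate 1 or Young replicate 2 moved this median to -0.22 or 0.00. The centred Old values lay above both Young values in 2 regions and below both in 4, against 16.9% and 17.1% of all regions. In simulated data for this comparison, 21% of regions changed 1.5-fold were recovered and 66% of those changed 2-fold. The changed regions were drawn at random from all regions, whose median was 31 to 56 reads per library. Recovery at the depth of the members was not simulated. Smaller changes, such as those of the members after centring, were not simulated. The start-site regions held a median of 111.5 reads per library, for which counting error alone is 9.47%.

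With acetate, the log2 change from Old was positive as given in 15 of 15 regions, against 83.2% of all regions, with a median of 0.40 against 0.24. Over all start-site regions, 90.0% of changes were positive, with a median of 0.29. With all 6 libraries in the fit, none of the 15 passed (limma, 0 of 15, against 0.311% of all regions called). This did not hold without Old replicate 1, when more of all regions were called too. An unadjusted p under 0.05 (limma) was seen for 8, against 18% of all regions and 25.7% of all start-site regions. Without Old replicate 1 the median change as given was 0.50, against 0.29 over all regions. Without Old replicate 2 it was 0.19, against 0.17 over all regions. The change was positive in 13 to 15 of the 15 whichever library was left out. In 10 of the 15 the OldAcetate values lay above both Old values, against 47.1% of all regions and 5726 of the 9745 start-site regions. After centring, 0 passed with limma (background 0%) and 0 with edgeR, for which no share over all regions is at hand. Unadjusted, 1 of the 15 had a p under 0.05 with limma, the Epas1 start-site region (against 6.24% of all regions), and 0 with edgeR. The median centred change was 0.16, against 0.00 over all regions and 0.05 over all start-site regions, and it was 0.02 without Old replicate 2. The OldAcetate values lay above Old after centring in 6 regions and below in 2, against 16.7% and 17.2% of all regions. Of all 9745 start-site regions, 2171 lay above and 1127 below.

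Between OldAcetate and Young, 0 of the 15 regions passed either as given or after centring (limma, background 0% in both). As given, 7 changes were positive and 8 negative, with a median of -0.04 against -0.11, and 1 region, Egln1 at the start, had an unadjusted p under 0.05 (against 6.1% of all regions). After centring, 0 had an unadjusted p under 0.05 with limma (against 5.08%). With edgeR 2 of the 15 did, but no share over all regions is at hand for edgeR, so nothing is read from that count. After centring, the OldAcetate values lay below both Young values in 2 regions and above both in 1, against 18.1% and 17.7% of all regions. In RPM as given, they lay below both Young values without overlap in 6 regions and above in 1, Epas1 at the start, against 29.8% and 7.6% of all regions. The 6 were the start-site regions of Hif1a, Egln1, Egln3, Vegfa and Ldha and the farther Epas1 body region. Their OldAcetate means ran from 71.3% of Young at that Epas1 region to 94.3% at Ldha.

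**Figure D4:**
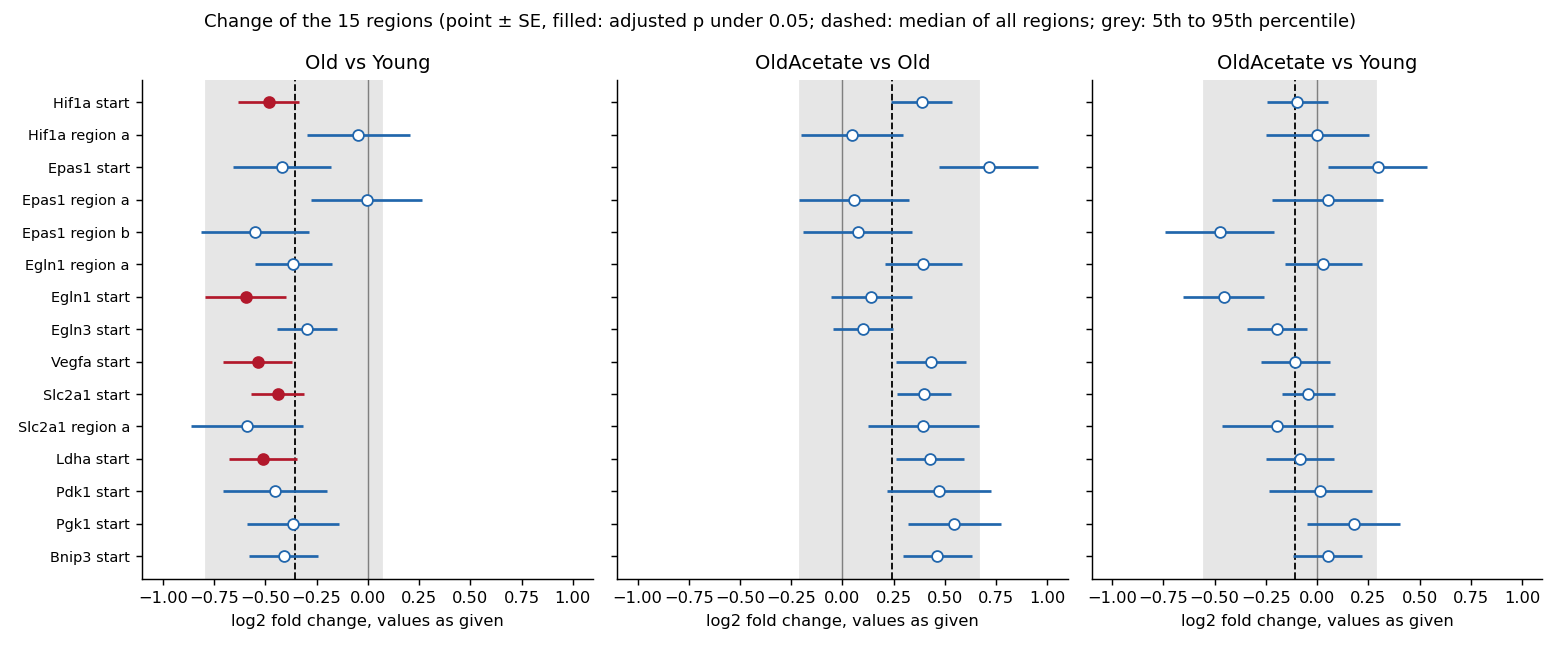
Log2 fold change of the 15 regions (horizontal axes, RPM as given, point ± SE) in the 3 comparisons. Filled red points passed an adjusted p of 0.05 in limma, the dashed line is the median of all regions (-0.35, 0.24 and -0.11) and the grey band their 5th to 95th percentile; member changes from Young to Old are all below 0, and those from Old to OldAcetate all above 0, as are those of most regions.

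Wider gene lists, without the 10 members, were read beside them. Of 13 genes of the HIF machinery (subunits, hydroxylases, cofactors), 12 had a start-site region. After centring, 0 of these 12 passed in any of the 3 comparisons (limma), and an unadjusted p under 0.05 was seen for 0, 0 and 1 of them, against 4.89%, 6.02% and 4.68% of all start-site regions. Their median log2 changes were -0.03, 0.06 and 0.07. Arnt, the partner of both α subunits, had the lowest change from Young to Old (-0.42, SE 0.27) and the highest from Old to OldAcetate (0.52, SE 0.27). Its region held 15.1 and 11.4 RPM in Young, 7.86 and 7.16 in Old, with 14.1 and 12.1 in OldAcetate, with Old below all others. The coactivator Ep300 was highest from Young to Old (0.29) and from Young to OldAcetate (0.45), and Hif1an, which encodes the asparaginyl hydroxylase FIH, was lowest from Old to OldAcetate (-0.27) and from Young to OldAcetate (-0.32).

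Of 27 other HIF target genes, 25 had a start-site region, and of 22 other glycolysis genes, 20 had one. After centring, 0 passed in either list in any comparison (limma), and an unadjusted p under 0.05 was seen for 1, 1 and 1 targets and for 1, 1 and 1 glycolysis genes, against 4.89%, 6.02% and 4.68% of all start-site regions. The median changes of the targets were -0.00, 0.06 and -0.01, and those of the glycolysis genes -0.02, 0.07 and 0.04. As given, 6 targets (Adm, Ccng2, Bhlhe40, P4ha2, Mxi1 and Plod2) and 3 glycolysis genes (Eno2, Gpi1 and Eno1) passed from Young to Old, all lower, against 11.2% of all start-site regions, and Tpi1 passed from Old to OldAcetate, higher, against 0.503%. Of the HIF machinery, 0 passed as given, with 4 of 12 at an unadjusted p under 0.05 from Young to Old, against 35.3% of all start-site regions.

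At the ends of these lists, Adm, for the vasodilator adrenomedullin, was the lowest target from Young to Old after centring (-0.35, SE 0.18) and the highest from Old to OldAcetate (0.30, SE 0.18). It held 33.6 and 32.7 RPM in Young, 20.8 and 19.5 in Old, with 30.6 and 28.4 in OldAcetate, so that its groups did not overlap. Bnip3l, a relative of Bnip3, was the highest target from Young to Old (0.37) and from Young to OldAcetate (0.35). Car12, a carbonic anhydrase, was the lowest from Old to OldAcetate (-0.43), and Stc2 was the lowest from Young to OldAcetate (-0.25). Among glycolysis genes, Eno2 was the lowest from Young to Old (-0.55, SE 0.26) and from Young to OldAcetate (-0.36). Tpi1, for triosephosphate isomerase, was the highest from Old to OldAcetate (0.43, SE 0.14) and from Young to OldAcetate (0.34). Tpi1 held 49.0 and 50.6 RPM in Young, 38.8 and 34.6 in Old, with 53.4 and 64.2 in OldAcetate, and its change with acetate as given was 0.67 (SE 0.17, adjusted p = 0.0455, limma). Pdk3, a relative of Pdk1, was the highest from Young to Old (0.35) and the lowest from Old to OldAcetate (-0.42).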

How the data were processed

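H3ac CUT&RUN was analysed in 6 libraries of mouse MSCs, 2 per group. The authors deposited 1 table of RPM values, 1 column per library, with the same set of regions measured in all libraries. Its name says RPKM, while the design expected RPM, with earlier results of these data known. No division by region length was found. In every library 100% of values were multiples of the RPM of 1 read (tolerance 0.01), which gave back whole reads and library totals. The submitters' processing notes name Bowtie2, Picard and mm10, without tool versions. Yeast DNA was added with the stop buffer, and its use for scaling is not given in the sources used here.

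Regions were matched to GENCODE release M21. Over the whole table, a start-site region is one that holds the 5′ end of a protein-coding gene record. For the members and gene lists, a region within 1 kb of that end was also allowed. The members and gene lists were chosen with earlier results of these data known. A few genes of the wider lists are not reported here and do not enter the counts. All 24431 regions entered limma 3.58.1 (R 4.3.3, eBayes with trend and robust, group means over 6 libraries) on log2(RPM + 0.5) after median centring, with Benjamini-Hochberg adjustment at 0.05. The centring subtracted 0.24 and 0.08 in Young, -0.13 and -0.25 in Old, with 0.06 and 0.04 in OldAcetate. Alternatives were no centring, quantile normalization, pseudocounts of 0.1 and 1, removal of the lowest 25% of regions, only the compared libraries, no trend and robust, a replicate block, edgeR 4.0.16 on the reads, a threshold of 0.01, extensions of 0 and 10 kb and leaving out each library. Autosomal regions only, and leaving out libraries without centring, were added after seeing the data. By the rule for named genes, all members are given with their start-site values, other member regions where called, and each wider list by its ends. Values of the other member regions not called were added after they were seen. The fit was tested on simulated data with 200 regions changed. Figures were drawn with matplotlib 3.10.9.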

Additional observations from a re-analysis of the deposited data

How the results depend on the processing

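The members called numbered 0 in each comparison under centring, quantile normalization, both other pseudocounts, the filter, the threshold of 0.01, autosomal regions only, only the compared libraries, both other extensions, edgeR with relative log expression factors and every omitted library (0 to 0). From Young to Old the count was 5 with values as given and 5 with edgeR on library totals alone. No share over all regions is at hand for either edgeR fit, so nothing is read from the edgeR counts. Without centring, the counts from Young to Old and from Old to OldAcetate depended on the library omitted.

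Values as given moved the median change of the members to -0.44, 0.40 and -0.042 in Old vs Young, OldAcetate vs Old and OldAcetate vs Young. Omitting 1 library gave medians of -0.22 to 0.0023, 0.015 to 0.20 and -0.038 to 0.071, and log2 ratios of the summed level of -0.52 to -0.34, 0.26 to 0.44 and -0.10 to -0.05.

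The sign of single genes depended on scaling at Egln1 (OldAcetate vs Old, 0.14 as given and 0.14 with edgeR on totals) and Egln3 (Old vs Young, -0.30 and -0.29, OldAcetate vs Old, 0.10 and 0.10). With edgeR and relative log expression factors, Epas1 and Pgk1 were at 0.018 and 0.020 in Old vs Young. Omitting 1 library changed the sign at Hif1a (-0.27 to 0.0023), Epas1 (-0.58 to 0.44), Egln3 (-0.066 to 0.18), Pdk1 (-0.35 to 0.15), Pgk1 (-0.34 to 0.32) and Bnip3 (-0.22 to 0.10) in Old vs Young, and at Epas1 (-0.034 to 0.99), Egln1 (-0.21 to 0.015) and Pgk1 (-0.0063 to 0.62) in OldAcetate vs Old. The cause was not tested.

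Libraries of the same replicate number did not deviate together (r = 0.01, -0.03 and -0.04 over all regions). The median region held 31 to 56 reads per library, so counting error could hide a shared origin. Whether such libraries share animals or a batch cannot be told from these values. With the replicate block, 0 members were called in each comparison. Depth limits the low regions most, with 21 reads at the least among the member regions and a counting error of 21.8%. Of the wider-list genes named as ends, Hif1an rests on fewer, with 13 reads in Old replicate 1 and in OldAcetate replicate 2.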
